A study of Homo sapiens with 25 samples.

Results

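H3K4me3, the trimethylation of lysine 4 on histone H3, was compared between PML knockdown and control MDA-MB-231 cells through 1 deposited peak list per condition. The lists held 27828 peaks for PML knockdown and 22284 for control, of which 27760 for knockdown and 22211 for control lay on chromosomes 1 to 22 and X and were used. They are 49971 of the 137827 peaks and domains used from the series. A peak was called shared when it overlapped a peak of the other list by at least 1 bp, and otherwise knockdown-only or control-only. Peaks were described by width, distance to an annotated transcription start, gene type and overlap with the H3K27ac lists, which held 43615 peaks for knockdown and 42320 for control. A protein-coding promoter was the start of the canonical transcript with 1 kb on either side, and its width of H3K4me3 was the summed width of the peaks that touched it.

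MDA-MB-231 is a cultured line derived from triple-negative breast cancer. In the knockdown group PML was silenced with lentivirally delivered shRNA. Cells of both groups were grown in DMEM with serum and crosslinked with disuccinimidyl glutarate and then formaldehyde before chromatin immunoprecipitation and sequencing. Each group had 2 H3K4me3 libraries out of 25 in the series, and each list joins both libraries of its group. The labels give neither the hairpin sequence nor what the control cells received, and the file marks ct and pml were read as control and knockdown, which is an assumption. With 1 list per condition no value per replicate exists, so no difference here has a replicate check and no test was made. Read depth is unknown, and where a list has no peak, the mark may still be present below the calling threshold. Intervals given with shares are exact Clopper-Pearson 95% intervals over peaks and cover counting error only.

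H3K4me3 is laid down by the SET1 and MLL (KMT2) methyltransferases, which work in COMPASS-type complexes, and is removed by the KDM5 demethylases. The mark is concentrated at the starts of active genes and at unmethylated CpG islands, partly through the CG-binding subunit CXXC1. H3K27ac is found at active promoters and at active enhancers, and enhancers usually carry little H3K4me3. PML is the scaffold of PML nuclear bodies, nuclear compartments that hold SUMO-modified proteins and lie beside chromatin.

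The sequences under 4 peaks give examples of DNA that carried the mark in 1 list only. Each is 200 bases of the hg38 reference inside the peak, the stretch clear of annotated exons that lies nearest the summit, written on the strand of the gene with every CG in capitals. They come from the 2 promoters with the highest −log10 q in each class, knockdown-only first. The windows are centred on the summit at MARCHF4 and PDE9A, 300 bp from it at CD74 and 75 bp from it at PHETA2.

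MARCHF4, chr2:216372577-216372776, minus strand, upstream of the start: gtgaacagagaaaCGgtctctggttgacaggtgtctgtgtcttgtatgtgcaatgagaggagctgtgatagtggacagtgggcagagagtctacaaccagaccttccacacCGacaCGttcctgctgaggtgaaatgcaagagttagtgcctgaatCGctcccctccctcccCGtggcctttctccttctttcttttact
PDE9A, chr21:42654362-42654561, plus strand, downstream of the start, intronic: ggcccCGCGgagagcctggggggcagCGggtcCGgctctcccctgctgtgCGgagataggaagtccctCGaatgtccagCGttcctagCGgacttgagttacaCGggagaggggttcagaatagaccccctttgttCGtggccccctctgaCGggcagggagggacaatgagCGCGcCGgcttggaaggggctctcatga
CD74, chr5:150412970-150413169, minus strand, upstream of the start: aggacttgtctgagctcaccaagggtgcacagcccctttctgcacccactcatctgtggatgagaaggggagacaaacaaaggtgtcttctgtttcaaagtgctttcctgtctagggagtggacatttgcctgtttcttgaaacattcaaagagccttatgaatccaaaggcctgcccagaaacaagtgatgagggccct
PHETA2, chr22:42074473-42074672, plus strand, downstream of the start, intronic: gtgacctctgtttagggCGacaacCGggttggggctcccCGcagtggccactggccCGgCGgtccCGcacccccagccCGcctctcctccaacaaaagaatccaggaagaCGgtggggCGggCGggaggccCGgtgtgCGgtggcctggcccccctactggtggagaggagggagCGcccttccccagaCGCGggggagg

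These windows hold 5 CG at MARCHF4, 14 at PDE9A, 0 at CD74 and 15 at PHETA2. A CpG ratio, observed CG over the number expected from base composition, of at least 0.6 with at least 50% G and C in 300 bases around the start held for 8 of the 8 strongest knockdown-only promoters and 4 of the 8 strongest control-only promoters. CG reads the same on both strands, and 97.3% of 200-base windows centred on the 19970 protein-coding starts hold at least 1, with a median of 18. The median was 3 CG in 200 bases around knockdown-only summits and 3 around control-only summits. At shared summits it was 10 in the knockdown list, against 10 in that of control.

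The peaks found after PML knockdown alone were numerous, narrow and low in rank. The knockdown-only peaks numbered 7436, or 26.8% of the knockdown list, against 260 control-only peaks, or 1.17% of the control list. Knockdown-only peaks had a median width of 517 bp and control-only peaks one of 354.5 bp. Shared peaks were wider, with medians of 1616 bp in the knockdown list and 1149 bp in the control list. The fold enrichment at the summit, the authors' own value per peak, had a median of 4.21 for knockdown-only and 3.61 for control-only peaks, and of 20.8 for shared knockdown and 10.5 for shared control peaks. All knockdown-only peaks together covered 4.60 Mb, against 0.104 Mb for control-only peaks.

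**Figure D1:**
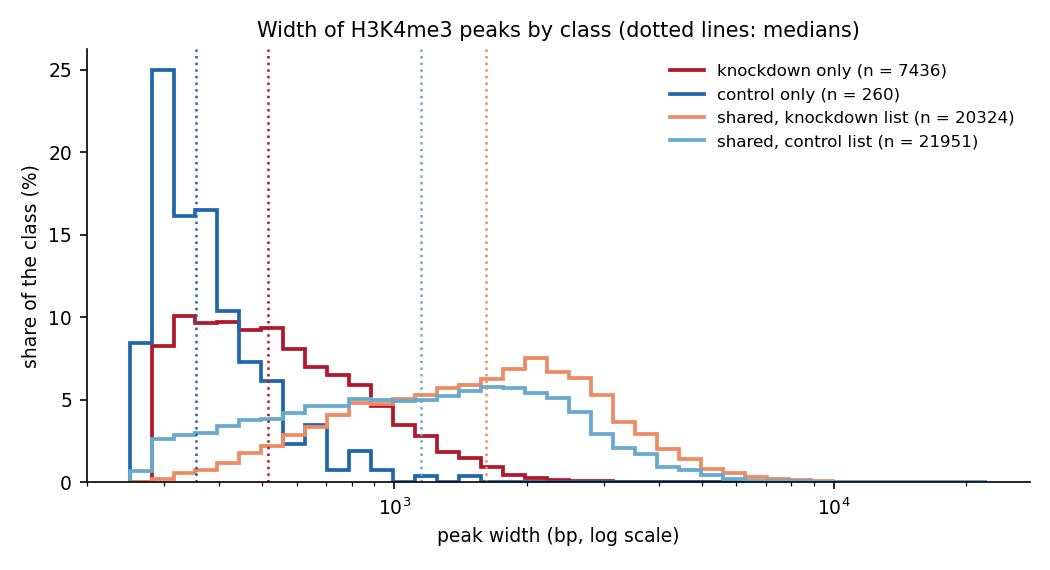
Share of each class of H3K4me3 peaks (y axis, percent) by peak width (x axis, bp, log scale) for knockdown-only, control-only and shared peaks of each list, with dotted lines at the medians. The knockdown-only median of 517 bp and the control-only median of 354.5 bp both lie left of the shared medians, 1616 bp in the knockdown list and 1149 bp in the control list.

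Rank within the list separated the classes. In the lowest decile of the knockdown list by −log10 q, 92.1% of peaks had no control counterpart, and in the fourth decile 27.4%. In the sixth decile 17 peaks, or 0.612%, had none, and above it there were none. Of the control list, 7.56% of the lowest decile and 0.855% of the third had no knockdown counterpart. When only the 22211 highest-ranked knockdown peaks were kept, so that both lists were equally long, 2611 peaks were knockdown-only and 982 were control-only. The knockdown list thus kept more unmatched peaks than the control list at equal length, by a smaller margin. At equal length, an excess of unmatched peaks in either list equals the excess of matched peaks in the other. The margin therefore also reflects how often a knockdown peak spanned several control peaks, and it is not a count of added sites.

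**Figure D2:**
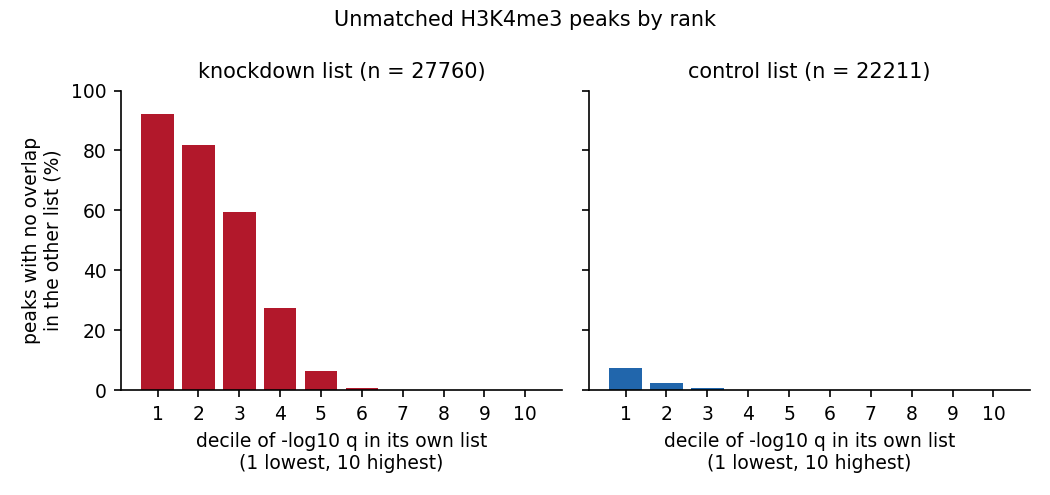
Share of H3K4me3 peaks without an overlapping peak in the other list (y axis, percent) by decile of −log10 q within the peak's own list (x axis), for the knockdown list (left) and the control list (right). The share is 92.1% in the lowest knockdown decile and 7.56% in the lowest control decile, and it is 0 in the 4 highest knockdown deciles.

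Most knockdown-only peaks lay away from gene starts. A start of any annotated gene was within 1 kb of 14.9% of knockdown-only peaks (14.1 to 15.7%) and of 16.5% of control-only peaks, against 69.1% of shared knockdown peaks and 69.0% of shared control peaks. Starts were more than 10 kb away for 53.1% of knockdown-only and 62.3% of control-only peaks. The share within 1 kb depended on the gene annotation: with the starts of all annotated transcripts it was 24.1% for knockdown-only peaks. Protein-coding promoters were touched by 8.61% of knockdown-only peaks and 8.85% of control-only peaks, and by 60.7% of shared knockdown peaks. Promoters of long non-coding RNA genes without a protein-coding promoter were touched by 4.26% of knockdown-only, 6.54% of control-only and 6.90% of shared knockdown peaks. Of knockdown-only peaks, 59.1% had the summit in an intron and 28.4% between genes, while 38.1% of control-only summits were intronic and 47.7% intergenic.

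Knockdown-only peaks lay mainly at sites that carried H3K27ac in both conditions. Of all knockdown-only peaks 76.3% (75.4 to 77.3%) overlapped a knockdown H3K27ac peak and 71.6% a control H3K27ac peak. Acetylation of the knockdown list alone was overlapped by 5.50%, and that of the control list alone by 0.780%. Beyond 1 kb from a start, 82.4% of knockdown-only peaks overlapped knockdown H3K27ac and 78.0% control H3K27ac. Within 1 kb of a start these shares were 41.6% for knockdown H3K27ac and 35.4% for control H3K27ac, where shared knockdown peaks had 79.6% and 75.6%, in the same order. Beyond 1 kb, shared knockdown peaks had 73.7% for knockdown and 72.4% for control H3K27ac. The knockdown-only share was therefore the lower of the 2 near starts and the higher of the 2 far from them.

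Read from the acetylated sites, H3K4me3 covered a larger share in the knockdown list. Of 24595 knockdown H3K27ac peaks that lay beyond 1 kb from a start and overlapped a control H3K27ac peak, 36.5% overlapped an H3K4me3 peak of the knockdown list and 18.9% one of the control list. Of these sites 4390 had H3K4me3 in the knockdown list without the control list and 47 the reverse. The knockdown share was 23.03% when the knockdown list was cut to the length of the control list. The median H3K27ac fold in the knockdown list was 11.6 at sites with H3K4me3 in that list alone, 9.87 at sites with control H3K4me3 and 5.84 at sites with neither. At the 25715 control H3K27ac peaks beyond 1 kb that overlapped a knockdown one, the control H3K27ac folds were closer, 7.93, 7.70 and 4.81 in the same order. Within 1 kb of a start, 12258 knockdown H3K27ac peaks overlapped a control one. H3K4me3 lay on 92.8% of these in the knockdown list and on 88.9% in the control list.

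**Figure D3:**
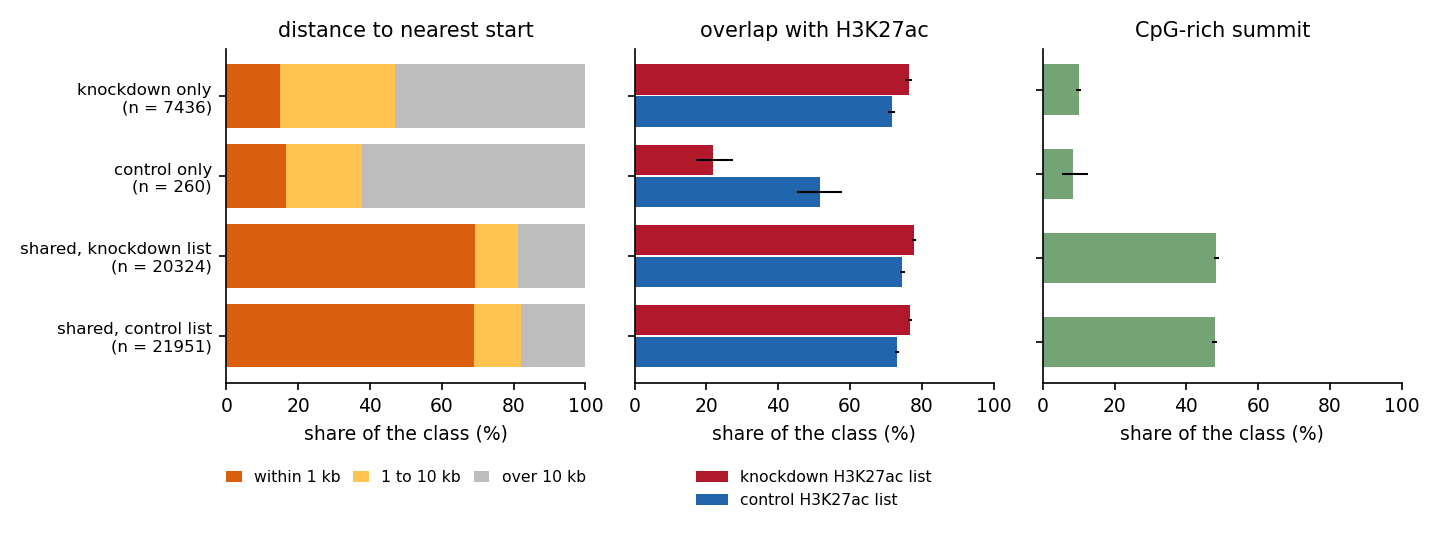
Share of each class of H3K4me3 peaks (x axes, percent) by distance to the nearest transcription start (left), by overlap with each H3K27ac list (middle) and with a CpG-rich summit (right), where lines are exact 95% intervals. Starts within 1 kb make up 14.9% of knockdown-only and 16.5% of control-only peaks, and 76.3% of knockdown-only against 21.9% of control-only peaks overlap knockdown H3K27ac.

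Sequence followed the distance to a start. A summit was called CpG-rich when the 300 bases around it met the same limits, a CpG ratio of at least 0.6 and at least 50% G and C. This held for 10.0% of knockdown-only, 8.46% of control-only and 48.3% of shared knockdown summits. Among peaks within 1 kb of a start the shares were 40.4% for knockdown-only, 20.9% for control-only and 60.8% for shared knockdown peaks. Farther out they were 4.74%, 5.99% and 20.4%. Few knockdown-only peaks were fragments beside a control peak: 525, or 7.06%, ended within 1 kb of one, and 68.3% were more than 10 kb from any. The knockdown-only share ran from 17.6% of knockdown peaks on chromosome 19 to 32.7% on chromosome 21.

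The control-only peaks were a mixed set, and their strongest members were centromeric. Of the 10 control-only peaks with the highest −log10 q, 9 lay on chromosome 17 between 23016248 and 26885918 (hg38), where the assembly holds modelled centromere sequence. This stretch held 13 H3K4me3 peaks of the control list, with folds of 1.88 to 16.3, and 0 of the knockdown list. Its H3K27ac peaks numbered 3 in the knockdown list, against 18 in that of control. Alpha satellite, the DNA of human centromeres, repeats with a unit of about 171 bases, which shows in 2 consecutive units from the summit of the strongest control-only peak. Capitals mark the 132 of 171 bases (77.2%) that are equal at the same position of both units, on the plus strand.

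Unit 1, chr17:26603907-26604077: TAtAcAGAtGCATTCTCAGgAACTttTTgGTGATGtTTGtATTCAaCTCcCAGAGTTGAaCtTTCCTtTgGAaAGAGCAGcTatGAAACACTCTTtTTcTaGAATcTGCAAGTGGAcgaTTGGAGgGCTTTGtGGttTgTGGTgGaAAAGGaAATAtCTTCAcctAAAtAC
Unit 2, chr17:26604078-26604248: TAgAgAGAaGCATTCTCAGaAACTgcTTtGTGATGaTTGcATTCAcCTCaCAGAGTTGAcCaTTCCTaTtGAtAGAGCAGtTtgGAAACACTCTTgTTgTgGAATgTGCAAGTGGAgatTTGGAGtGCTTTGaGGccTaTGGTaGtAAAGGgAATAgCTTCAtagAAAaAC

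A peak was counted as repetitive when at least 45% of 600 bases around its summit equalled the base about 171 positions further on, where the median over all peaks was 29.3% in the knockdown list, against 29.5% in that of control. By this measure, chosen after the positions were seen, 9 of 7436 knockdown-only and 46 of 260 control-only peaks were repetitive, on 6 chromosomes for knockdown-only and 15 for control-only peaks. The whole lists held 17 such H3K4me3 peaks for knockdown and 55 for control, and the H3K27ac lists held 69 for knockdown and 197 for control. Of the 46, 8 overlapped knockdown H3K27ac and 43 control H3K27ac. The repeat unit was measured on that strongest peak. Reads from near-identical satellite copies cannot be placed with certainty, and the H3K4me3 and H3K27ac libraries of a condition have 1 input library between them in the labels. The part of mapping and input in this difference was not tested. Without the repetitive peaks 214 control-only peaks were left, of which 22.9% overlapped knockdown H3K27ac and 42.5% control H3K27ac.

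Broad PML domains, deposited for libraries with no condition in the title, covered the largest share of the control-only class. Such domains overlapped 12.7% of knockdown-only and 28.5% of control-only peaks, against 10.6% of shared knockdown and 10.2% of shared control peaks. Without repetitive peaks the shares were 12.8% of knockdown-only and 34.6% of control-only peaks. Domains of lamin B1 in control cells overlapped 11.2% of knockdown-only and 26.5% of control-only peaks. The domain lists have no knockdown counterpart for PML, and the small control-only class gives the 28.5% an interval of 23.1 to 34.4%.

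At gene level, H3K4me3 was present at nearly the same promoters in both conditions. Of 19970 protein-coding promoters 12725 were marked in the knockdown list, against 12347 in that of control. A promoter was counted in 1 list only when none of its peaks overlapped one of the other list. This held for 357 promoters in the knockdown list, or 1.79% of all, and for 19 in the control list, or 0.0951%. Another 40 promoters were touched only by knockdown peaks that joined a control peak outside the promoter, and 12328 were marked in both lists. With lists of equal length the counts were 220 promoters in the knockdown list only and 68 in the control list only. Near-neighbour genes can share 1 peak, and the best peak was shared with another gene at 2825 of the promoters marked in the knockdown list and 2733 of those marked in the control list.

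Promoters marked after knockdown alone mostly had a CpG-rich start but were mostly without acetylation. The CpG ratio around their starts had a median of 0.82, close to the 0.88 of promoters marked in both lists, while it was 0.34 at control-only promoters and 0.34 at promoters marked in neither list. The limits for a CpG-rich start were met by 72.8% of knockdown-only and 90.5% of shared promoters. They were met by 26.3% of control-only and 29.4% of unmarked ones. These values describe the start and not the sequence under the peak. Of the 357 knockdown-only promoters 77.6% had a promoter H3K27ac peak in neither list, against 14.3% of the 12328 shared promoters and 97.2% of the 7226 unmarked ones. Their H3K4me3 peaks were narrow, with a median summed width of 511 bp and a median fold of 4.98.

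The 8 strongest knockdown-only promoters spanned several functions. MARCHF4, a membrane-bound ubiquitin ligase (ENSG00000144583.5, start at 216372483 on chromosome 2), carried a knockdown peak of 1600 bp at 216371910 to 216373509, with a fold of 15.7 and a −log10 q of 83.7. It was acetylated in both conditions, with promoter H3K27ac folds of 21.9 in the knockdown list, against 5.31 in that of control. PDE9A, a phosphodiesterase that degrades cyclic GMP (ENSG00000160191.18, start at 42653621 on chromosome 21), had a peak of 599 bp with a fold of 18.2 and no promoter H3K27ac in either list. That peak lay 841 bp from the start at its summit, so PDE9A was unmarked when promoters were cut to 500 bp on either side.

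PPP2R3B, a regulatory subunit of the phosphatase PP2A, had a knockdown peak of 812 bp and a fold of 15.6. CAMKK1, a kinase that activates calmodulin-dependent kinases, had 2 knockdown peaks with a summed width of 1896 bp, the higher fold of which was 11.5. NTN1, which encodes the axon guidance ligand netrin-1, had 623 bp and a fold of 6.73. The remaining members were VSTM2L with 318 bp, ABR with 488 bp and C1orf159 with 1105 bp. Of the 8, MARCHF4 and PPP2R3B had promoter H3K27ac, in both lists, and the other 6 had none in either list.

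Control-only promoters were fewer and weaker. CD74, the invariant chain of MHC class II (ENSG00000019582.17, start at 150412910 on chromosome 5), had a control peak of 655 bp at 150412533 to 150413187, with a fold of 6.02 and a −log10 q of 16.5. This was the highest −log10 q of the 19 control-only promoters, and it falls in the third decile of the control list, which spans 11.5 to 21.9. RUNX2, a transcription factor of bone formation, had 522 bp and a fold of 5.96 at the start of its canonical transcript. KYNU, an enzyme of tryptophan breakdown, had the widest control-only promoter peak, 986 bp with a fold of 4.37, beside a promoter H3K27ac peak found in the control list only. PHETA2 had 418 bp, SMKR1 306 bp, LCTL 420 bp, the acid phosphatase gene ACP7 277 bp and the peroxidase gene GPX7 306 bp. Among the 19 promoters, H3K27ac was in the control list only at 3 and in the knockdown list only at 0.

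Where both lists marked a promoter, the called peaks were wider in the knockdown list at nearly all of them. These are widths of called peaks from lists called separately and with unknown read depth. They do not by themselves measure how far the mark extended. The median summed width was 2371 bp in the knockdown list and 2031 bp in the control list. Of 12328 shared promoters 11774 (95.5%) were wider in the knockdown list and 548 (4.45%) narrower. The median log2 ratio of width, knockdown over control, was 0.19, a ratio of 1.14, and the median difference was 279 bp. The lower and upper quartiles of the log2 ratio were 0.10 and 0.34. At least 2-fold wider were 485 promoters (3.93%), and at least 2-fold narrower was 1 (0.00811%).

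The added length varied less with control width than the ratio did. In the decile of shared promoters that was narrowest in control, the median widths were 996 bp in knockdown and 685 bp in control, with a log2 ratio of 0.55 and a difference of 285 bp. In the widest decile they were 4650 bp in knockdown and 4126 bp in control, with a log2 ratio of 0.13 and a difference of 405 bp. Across the 10 groups the median difference ran from 237 to 405 bp. Control width enters both the grouping and the ratio, so the fall of the ratio is partly fixed by construction. The 303 promoters at least 2-fold wider in the narrowest decile were most of the 485.

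**Figure D4:**
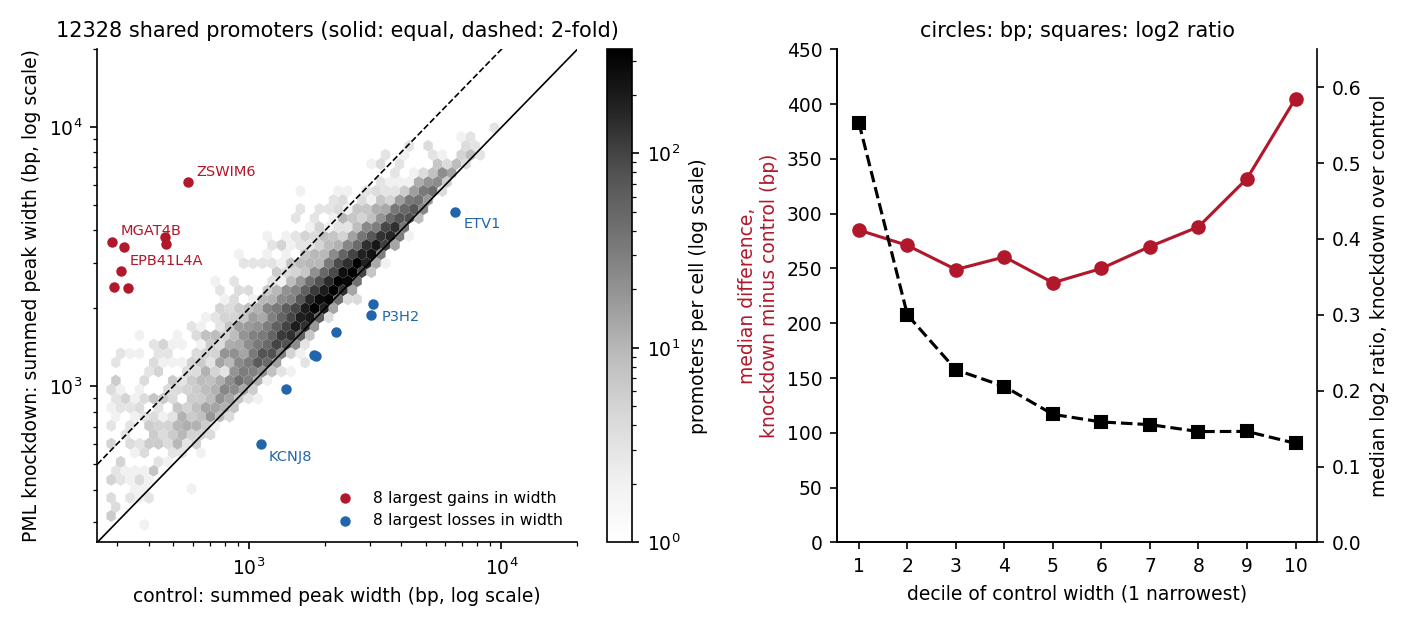
Left, summed H3K4me3 peak width at 12328 shared promoters in PML knockdown (y axis, bp, log scale) against control (x axis, bp, log scale), shaded by number of promoters, with the 8 largest gains in red and the 8 largest losses in blue. Right, the median difference in bp (circles, left axis) and the median log2 ratio (squares, right axis) by decile of control width: the difference stays between 237 and 405 bp while the log2 ratio is 0.55 in the narrowest and 0.13 in the widest decile.

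Peaks extended on both sides of the start. Among 6046 promoters with a single, mutually matched peak per list, the knockdown peak reached 82 bp farther upstream and 118 bp farther downstream at the median. The upstream edge was farther out in knockdown at 89.6% of them, and the downstream edge at 89.7%. Reach upstream of the start had medians of 798 bp in knockdown and 705.5 bp in control, and reach downstream 1426 bp in knockdown and 1280 bp in control. The summit moved little, by a median of 16 bp in either direction.

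Fold enrichment moved with width. At shared promoters the median fold was 36.2 in the knockdown list, against 18.4 in that of control, the median ratio was 1.89, and 95.5% had the higher fold after knockdown. The lists were called separately and are not on a common scale, so these folds do not measure an amount of H3K4me3. At the 551 shared promoters whose fold was not higher in knockdown, the median log2 ratio of width was 0.14 and 473 of 551, or 85.8%, were wider. At the 5481 promoters whose fold was over 2 times that of control, it was 0.20 and 97.1% were wider.

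Some neighbouring control peaks were spanned by 1 knockdown peak, here called joined. Across the genome 7.63% of shared knockdown peaks spanned 2 or more control peaks, against 0.0501% of shared control peaks that spanned 2 or more knockdown peaks. At shared promoters 1131 had fewer peaks in knockdown than in control and 292 had more. Of the 12328, 9411 had 1 peak in each list, and these had a median log2 ratio of 0.16. Because a joined peak can count a control neighbour that lies outside the promoter, widths were also summed over every peak of a joined locus. The median log2 ratio was then 0.19, and 319 promoters were at least 2-fold wider.

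The median ratio was smaller for H3K27ac width, but over a smaller set of promoters, so the marks were not compared at the same promoters. Within 2500 bp on either side of the start, the median log2 ratio of H3K4me3 width, knockdown over control, was 0.17 at the 12328 shared promoters. The median log2 ratio of H3K27ac width in the same window was 0.11 at the 10010 shared promoters acetylated in both lists. It was 0.35 at the 244 acetylated promoters with at least 2-fold wider H3K4me3 and −0.07 at the 408 with narrower H3K4me3. Of the 485 promoters at least 2-fold wider, 189 had acetylation in neither list within this window.

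The largest gains in width were at promoters with a small control peak. EPB41L4A, a FERM-domain protein gene, had 2786 bp in knockdown and 312 bp in control, with folds of 15.06 in knockdown and 5.396 in control and a log2 ratio of 3.16 by either measure. KREMEN1, a receptor for the Wnt inhibitor Dickkopf, had 2425 bp in knockdown and 292 bp in control, a log2 ratio of 3.05 by either measure. BTBD19 had 2406 bp in knockdown and 332 bp in control, with folds of 3.58 in knockdown and 2.61 in control. MGAT4B, a glycosyltransferase of N-glycan branching, had 3616 bp in knockdown and 287 bp in control. Its log2 ratio was 3.66 by promoter peaks and 1.69 by locus, and CDH4, which encodes R-cadherin, had 2.93 by promoter peaks and 1.32 by locus.

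At the other 3 of these 8 promoters the gain by locus was less than 2-fold. CPT1A, which admits fatty acids to mitochondria, had 3456 bp in knockdown and 319 bp in control at the promoter, yet a log2 ratio of 0.51 by locus. ZSWIM6 had 6135 bp in knockdown and 571 bp in control, and 0.85 by locus. CASP8, the initiator caspase of death receptors, had 3772 bp in knockdown and 466 bp in control, and 0.48 by locus.

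The largest losses were smaller than the gains. KCNJ8, a potassium channel subunit, had 598 bp in knockdown and 1112 bp in control, a log2 ratio of −0.89, with folds of 5.25 in knockdown and 7.73 in control. ADGRL3, an adhesion receptor, had 979 bp in knockdown and 1397 bp in control (−0.51). With promoters cut to 500 bp on either side, ADGRL3 was touched by the control peak only. CCDC68 had 1312 bp in knockdown and 1844 bp in control (−0.49), and MAP2K6, a kinase that activates p38, had 1322 bp in knockdown and 1803 bp in control (−0.45). KCNJ8, CCDC68 and MAP2K6 also had lower folds in the knockdown list, unlike most shared promoters.

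The other 4 depended on the measure. ETV1, an ETS transcription factor, had 4718 bp in knockdown and 6542 bp in control, a log2 ratio of −0.47 that was −0.16 by locus. AREG, which encodes the EGFR ligand amphiregulin, had 1616 bp in knockdown and 2203 bp in control (−0.45, and −0.18 by locus). P3H2, a collagen prolyl hydroxylase, had −0.57 and −0.03 by locus, and VSNL1, a neuronal calcium sensor, had −0.70 at the promoter but 0.19 by locus. EREG, which encodes the related ligand epiregulin and was picked out after its value was seen, had 2308 bp in knockdown and 3003 bp in control (−0.38).

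The widest H3K4me3 peaks lay partly outside promoters of canonical protein-coding transcripts. Of the 5 widest peaks of each list, 3 knockdown peaks and 3 control peaks touched no such promoter. Only canonical starts were used, so these peaks may still hold starts of other transcripts of protein-coding genes. The widest knockdown peak, 18688 bp, held the start of the long non-coding RNA gene ENSG00000269902 on chromosome X, and the control peak there had 10364 bp. The second widest knockdown peak, 16081 bp on chromosome 7, lay 13637 bp from the nearest start, that of the long non-coding RNA gene ENSG00000271204, and spanned a control peak of 9694 bp.

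Among protein-coding promoters, those with the widest single peak in each list had roles from signalling to the cytoskeleton. EPHA2, a receptor tyrosine kinase, had the widest promoter peak of the knockdown list, 14461 bp against 6988 bp in control. By locus the control width there was 9735 bp, a log2 ratio of 0.57. PLEC, a cytoskeletal linker, had 12251 bp in knockdown and 4864 bp in control, but 8882 bp in control by locus, a log2 ratio of 0.46. TNRC18 had 1 peak of 12142 bp in knockdown and 2 peaks in control with a summed width of 7869 bp, the wider of 6147 bp. Its control width by locus was 10483 bp. DUSP4, a MAP kinase phosphatase, had 1 peak of 11925 bp in knockdown and 2 in control with a summed width of 9199 bp, the wider of 7254 bp. Its control width by locus was 10067 bp. IRS1, the insulin receptor substrate, had 1 peak of 11465 bp in knockdown and 2 in control with a summed width of 10599 bp, the wider of 8789 bp. NR3C1, the glucocorticoid receptor, had the widest single peak of the control list, with 10609 bp in knockdown and 10574 bp in control. DUSP6, another MAP kinase phosphatase, had 10199 bp in knockdown and 9247 bp in control, and HS3ST3B1, a heparan sulfate sulfotransferase, 10432 bp in knockdown and 8993 bp in control. BCL6, a transcriptional repressor, shared its peak of 9907 bp in knockdown and 9331 bp in control with the neighbouring gene ENSG00000285938.

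Genes were also read by role in 17 lists, each beside the 1.79% of all promoters marked in the knockdown list only, the 61.7% marked in both, and, at shared promoters, the 95.5% wider in knockdown and the median log2 ratio of 0.19. Medians and values in parentheses are log2 ratios of promoter width, knockdown over control. Genes for enzymes that add or remove methyl groups at lysine 4 carried H3K4me3 on their own promoters: 14 of 14 methyltransferase complex genes and 6 of 6 demethylase genes were marked in both lists. The demethylase list also holds KDM1A and KDM1B, which remove mono- and dimethylation and not trimethylation. The median log2 ratio was 0.17 for the methyltransferase complexes, from 0.00 at DPY30 to 0.71 at HCFC1, and 0.21 for the demethylases, from −0.01 at KDM2B to 0.34 at KDM1A. HCFC1, a cofactor of SET1 complexes, had 5115 bp in knockdown and 3122 bp in control, with a log2 ratio of 0.39 by locus. KDM1A had 3068 bp in knockdown and 2416 bp in control.

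All 14 genes for PML body components were marked in both lists and wider in knockdown, with a median of 0.14. With 95.5% of all shared promoters wider, this count is near the background. DAXX, a histone H3.3 chaperone, had 4122 bp in knockdown and 2263 bp in control (0.87, and 0.60 by locus). PML itself had 3894 bp in knockdown and 3792 bp in control, and LMNB1 3988 bp in knockdown and 3520 bp in control. Since a short hairpin degrades the mRNA, the promoter mark says nothing of how far PML was silenced.

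Of 23 genes linked to lung and bone metastasis, 15 were marked in each list. ANGPTL4, which loosens endothelial junctions, was marked in knockdown only, with 1267 bp and a fold of 5.76, and KYNU in control only. Of the 14 marked in both lists, 11 were wider and 3 narrower in knockdown, with a median of 0.14. FSCN1, the actin bundler fascin, had 1258 bp in knockdown and 616 bp in control (1.03), and PLAAT4, a retinoid-induced gene, 880 bp in knockdown and 495 bp in control (0.83).

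Extracellular matrix genes had a median of 0.35 over 15 promoters marked in both lists, with 14 wider and 9 above the median of all shared promoters. COL4A1 and COL4A2 had the same peaks, 4439 bp in knockdown and 3106 bp in control (0.52). Both are counted in the 15, the 14 and the 9, so these promoters are not all independent and the median is raised by the double count. COL5A1 had 4922 bp in knockdown and 2225 bp in control (1.15, and 0.80 by locus). COL6A1 had 2575 bp in knockdown and 1573 bp in control (0.71 by either measure). ITGB3, an integrin subunit, was marked in knockdown only, but with a peak of 287 bp and a fold of 1.88, and it was unmarked when a −log10 q of at least 5 was asked for and with lists of equal length. Among hypoxia genes 16 of 18 were shared with a median of 0.14, and ANGPTL4 was the member marked in knockdown only.

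The marker lists for the cell line gave a mixed picture. MDA-MB-231 is known as a mesenchymal-like line that lacks E-cadherin, the product of CDH1. Of the 15 genes for epithelial-mesenchymal transition, 9 were marked in both lists, among them VIM, FN1, SNAI2 and ZEB1, and CDH1 was marked in neither. The mesenchymal genes CDH2, TWIST1, TWIST2, PRRX1 and FOXC2 were also marked in neither. Of 20 luminal genes 13 were marked in both lists, among them the epithelial genes KRT8, KRT18, EPCAM, CLDN3 and CLDN4 and the luminal factors FOXA1 and ESR1, while 5, GATA3 among them, were marked in neither. Of 10 basal genes 7 were marked in both lists, EGFR and CD44 among them, and KRT5, KRT14 and KRT17 in neither. H3K4me3 was thus found at promoters of both epithelial and mesenchymal genes. Of 16 immune and stromal markers 3 were marked in knockdown and 2 in control, and PTPRC, CD3E, PECAM1 and DCN were marked in neither. CD68 was marked in knockdown only, with 961 bp and a fold of 4.60, beside H3K27ac in both lists.

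Luminal genes had a median of 0.31 over 13 shared promoters, of which 12 were wider and ESR1 narrower (−0.31). Basal genes had a median of 0.35 over 7 shared promoters, of which 6 were wider and 1 narrower. FOXA1, a pioneer factor of luminal cells, had 2448 bp in knockdown and 1393 bp in control (0.81). PGR, the progesterone receptor, was marked in knockdown only with 2 peaks and a summed width of 903 bp, but in both lists when promoters were widened to 2500 bp on either side. TFF3 was also marked in knockdown only, with 418 bp. Both PGR and TFF3 were unmarked in knockdown once the lists were of equal length. The 9 shared genes for epithelial-mesenchymal transition were all wider in knockdown, with a median of 0.15 and 914 bp in knockdown against 386 bp in control at S100A4 (1.24).

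Inflammatory genes gave 2 of the knockdown-only promoters. CXCL8, the neutrophil chemokine interleukin-8, had 1122 bp in the knockdown list with a fold of 6.96, and CSF2, which encodes GM-CSF, 881 bp with a fold of 2.64. Both promoters overlapped H3K27ac in both lists. CSF2 was unmarked when a −log10 q of at least 5 was asked for and with lists of equal length. The 8 shared members were all wider in knockdown, with a median of 0.20, among them NFKBIA, the inhibitor of NF-kappaB, with 3568 bp in knockdown and 2704 bp in control. Of 20 interferon response genes 19 were shared, with 17 wider, 2 narrower and a median of 0.17.

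Among MHC class II genes H3K4me3 was sparse, with 9 of 13 promoters in neither list, CIITA, the master regulator of the class, and HLA-DRA among them. CD74 was marked in control only and HLA-DQB1 in knockdown only, the second with 292 bp and a fold of 4.72 and unmarked with lists of equal length. HLA-DMA, a peptide-exchange factor, had 589 bp in knockdown and 285 bp in control, and HLA-DMB 655 bp in knockdown and 518 bp in control. HLA genes are polymorphic and partly near-identical, so reads at HLA-DQB1 may be misplaced.

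Of 40 developmental transcription factors 28 were marked in neither list and 11 in both. Of the 11, 3 were at least 2-fold wider: NKX2-1, a lung and thyroid factor, with 2489 bp in knockdown and 731 bp in control, SOX2, a stem cell factor, with 746 bp in knockdown and 316 bp in control, and EN2, chosen after its value was seen, at 1.15. Over all shared promoters 3.93% were at least 2-fold wider, and in the decile narrowest in control 303 of 1233 were. The shared members of this list were narrow in control, with a median of 752 bp. ASCL2 was marked in knockdown only, with 387 bp and a fold of 11.3, and was unmarked with 500 bp on either side. NKX2-1 was in knockdown only when a −log10 q of at least 5 was asked for.

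All 15 p53 target genes were shared and wider in knockdown, beside 95.5% of all shared promoters, with a median of 0.30 and 9 above the median of all shared promoters. BBC3, which encodes the cell death protein PUMA, had 2042 bp in knockdown and 755 bp in control (1.44), and TNFRSF10B, a TRAIL receptor, 5554 bp in knockdown and 2837 bp in control (0.97). All 18 cell cycle genes were also shared and wider, a count near the same background, with a median of 0.17. CCNE1 had 960 bp in knockdown and 477 bp in control (1.01), with folds of 7.53 in knockdown and 7.13 in control, and E2F1 1612 bp in knockdown and 1004 bp in control (0.68). Housekeeping genes, 20 of 20 shared and 19 wider, had a median of 0.17, with 5245 bp in knockdown and 3572 bp in control at ACTB. In every list with more than 2 shared members most of them were wider in knockdown, as were 95.5% of all shared promoters.

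**Figure D5:**
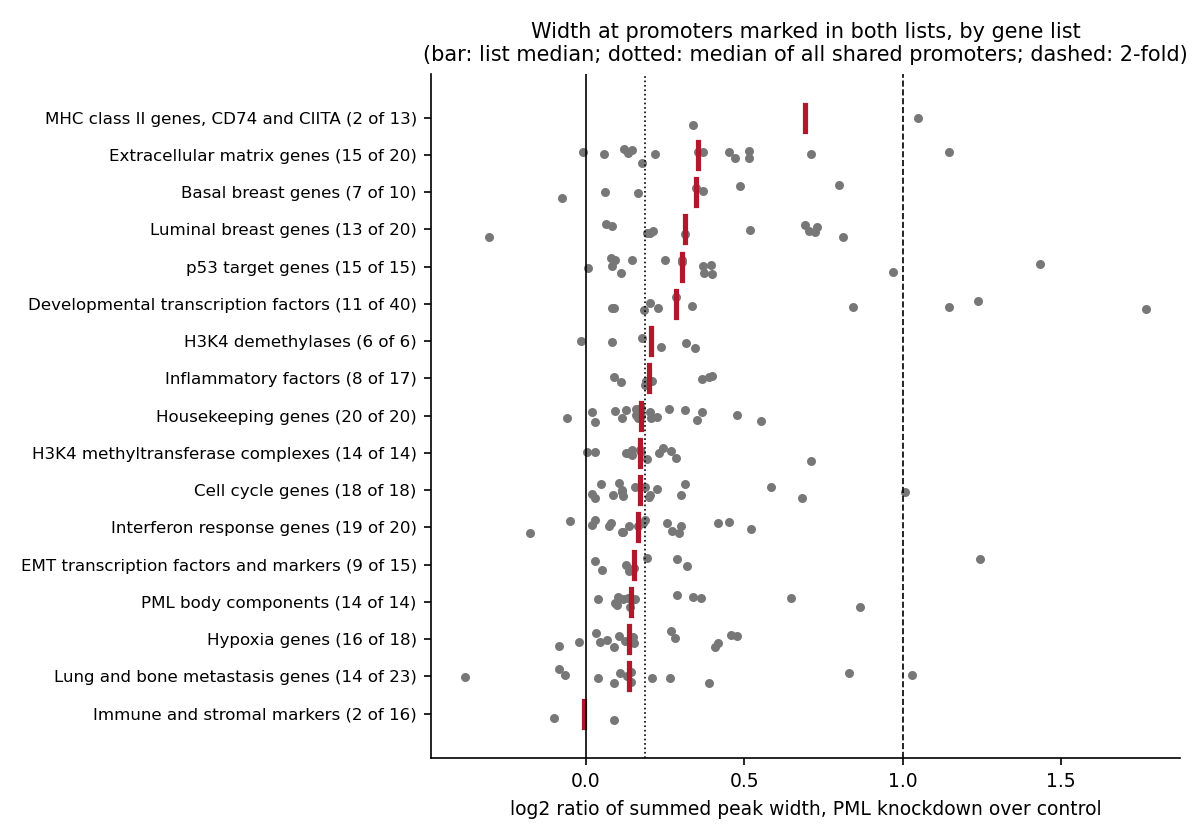
Log2 ratio of summed H3K4me3 peak width, PML knockdown over control (x axis), for promoters marked in both lists, 1 row per gene list with the number shared of those annotated, where points are genes and bars list medians. Medians run from 0.14 for metastasis genes to 0.35 for matrix genes among lists with more than 2 shared members, around the 0.19 of all shared promoters (dotted line). The matrix list counts COL4A1 and COL4A2 separately although they have the same peaks.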

How the data were processed

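For each mark and condition in MDA-MB-231 cells, 1 peak list from chromatin immunoprecipitation sequencing was deposited. The submitters' processing notes name the build hg38, MACS2 (2.2.7.1), deepTools, BWA (0.7.12-r1039) and Picard (1.104) with no steps or settings. The deposited lists give a fold enrichment, a ratio, and a −log10 q-value per peak, with lowest −log10 q values of 1.303 for knockdown and 1.31 for control. Deposited domain lists give a score per domain, used for position only. Peak names in the deposited files say that replicates 1 and 2 were joined. Filters and the input used for calling are not given in the sources used here.

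Genes were those of GENCODE release 44 (62062, of them 19970 protein-coding), with the start of the canonical transcript. Sequences were read from the hg38 reference. Scripts ran in Python 3.11.15 with pysam 0.24.0, scipy 1.17.1, pandas 2.3.3, matplotlib 3.10.9 and numpy 2.4.6. Overlap calls gave the same counts in bedtools 2.31.1, and the functions were tested on simulated lists. Named promoters were, per class, the 8 with the highest −log10 q, the 8 largest gains and losses of width where the wider list had at least 1000 bp, the 5 widest per list, and members of 17 gene lists in 1 list only or with the largest change. Members, lists and rules were chosen with earlier results of these data known. Marker genes, list extremes and repeats were named after their values were seen.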

Additional observations from a re-analysis of the deposited data

How the results depend on the processing

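Of 59 values recomputed under alternatives, 38 stayed within the 95% interval of the reported share or median, or within 1.5-fold of the reported count. Lists of equal length moved 7 results: 2611 knockdown-only peaks, 982 control-only peaks, 220 promoters in the knockdown list only and 68 in the control list only, and, for knockdown-only peaks, 23.3% near a start, 68.4% with knockdown H3K27ac and a median width of 643 bp. With both lists limited to peaks of −log10 q 5 or more, those last 3 values were 18.7%, 73.2% and 645 bp. Joining peaks within 500 bp gave 13.0%, 78.0% and, at shared promoters, a median log2 ratio of width of 0.17. The share near a start was 12.01% with 500 bp on either side, 21.2% with 2500 bp and 24.1% with the starts of all annotated transcripts. The median log2 ratio was 0.19 (0.190) with promoters of 2500 bp on either side, 0.17 (0.174) by base pairs inside that window and 0.16 with exactly 1 peak in each list. Without knockdown peaks within 1 kb of a control peak, an alternative added after seeing the data, 11.9% of knockdown-only peaks were near a start and 78.9% overlapped knockdown H3K27ac. Counting by locus and leaving out repetitive peaks were also added after seeing the data. Autosomes alone and a 50% overlap moved none of them. With a −log10 q of at least 5, S100A4 and BTBD19 were marked in knockdown only, as was CCNE1 with 500 bp on either side. No paired analysis was possible because each list joins both replicates, and for the same reason leaving out a replicate was not run. Read depth is unknown.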
